A study of Mus musculus with 77 samples.

Results

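Genes of the cyclic AMP machinery of striatal neurons were followed here, 10 in all: the adenylyl cyclases Adcy5, Adcy9 and Adcy3, the G protein alpha subunits Gnal, Gnas, Gnao1 and Gnai1, the gamma subunits Gng7 and Gng2, and the beta subunit Gnb5. They were read from all probe sets whose only annotated symbol was one of these 10, which gave 33 of the 45101 probe sets on the array and 10 of its 18194 singly annotated genes. Of the 33 probe sets, 30 passed the filter on dim signals, and each gene had at least 1 among them. The probe set with the highest mean over all arrays leads for each gene, and every value is a log2 expression value or a difference between log2 means. The level of one probe set is not compared with that of another.

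Adenylyl cyclases make cyclic AMP, the messenger that activates protein kinase A. In striatal projection neurons dopamine D1 receptors and the adenosine receptor encoded by Adora2a raise cyclic AMP through the alpha subunit Golf, encoded by Gnal, and D2 receptors lower it through subunits of the Gi and Go class. Adcy5 encodes the main cyclase of the striatum, and Gng7 the gamma subunit that, in mice, is needed to keep Golf at its normal level.

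The study bound tagged ribosomes to isolate messenger RNA of 1 neuron class from the striatum of single mice (translating ribosome affinity purification, TRAP) and hybridised it to Affymetrix mouse expression arrays. All animals were hemizygous bacterial artificial chromosome (BAC) transgenic males on a C57BL/6J background, 9 to 14 weeks old. Drd1::EGFP-L10a mice tag direct-pathway spiny projection neurons (dSPN), and Drd2::EGFP-L10a mice tag indirect-pathway ones (iSPN); the Drd2 promoter is also active in cholinergic interneurons. One side of the brain received 6-hydroxydopamine (6-OHDA) at 3.2 μg/μl in the medial forebrain bundle, which kills dopamine neurons, and lesioned mice were kept on the strength of their behaviour; mock-lesioned mice received the vehicle.

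Lesioned mice were given saline (11 dSPN and 7 iSPN arrays), low-dose levodopa (12 and 8 arrays) or high-dose levodopa (11 and 8 arrays), and mock-lesioned mice saline (10 arrays in each line). Levodopa, the precursor of dopamine, was started at 1 mg/kg for the first 3 days in the low regimen and then given at 2 mg/kg until day 9; the high regimen started at 3 mg/kg and went on at 6 mg/kg. It was injected together with the peripheral decarboxylase inhibitor benserazide at 12 mg/kg. Handling was the same in all groups, with saline in place of levodopa. The comparisons ask what dopamine loss does to each neuron class, what each levodopa regimen does in the depleted striatum, and whether the classes differ. Each array holds 1 mouse, so the p-values measure the spread between mice. The numbers in the sample titles rise in 7 runs, and the groups lie unevenly over these. Low-dose and saline dSPN share no run, and 1 run holds 9 of 10 mock iSPN arrays but 1 of 7 lesioned saline ones. The main p-values do not separate treatment from run.

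The 77 arrays had medians between 4.31 and 4.42, and each array's median correlation with the others of its group lay between 0.964 and 0.987. The line labels held: Drd1 differed by 1.73 and Drd2 by -4.87 between dSPN and iSPN after mock lesion, and by 2.17 and -4.98 after the lesion (adjusted p at most 1.87e-17). Glial RNA was present in both lines and moved with levodopa in dSPN. The mean of 9 oligodendrocyte markers in lesioned dSPN lay between 7.41 and 8.58 with saline (median 7.76), between 6.43 and 7.40 with the low dose (median 6.83) and between 6.18 and 7.38 with the high dose (median 6.69). Against saline, 8 of these 9 markers fell in dSPN with either dose, as did 5 of 8 astrocyte markers, while none of the 17 passed the test in iSPN. Shared spiny neuron markers also fell in dSPN, 4 of 4 tested with each dose (median change -0.25 with the high and -0.21 with the low dose), and 0 of 4 passed in iSPN. Of all probe sets, 44.9% passed in dSPN with the high and 33.4% with the low dose, against 8.71% and 3.77% in iSPN. In bulk RNA of this kind, fewer cells of a type and less RNA per cell cannot be told apart.

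Dopamine loss alone changed few of the 10 genes. After the lesion, 0 of 10 passed the test in dSPN, where 1.99% of all 23974 probe sets tested passed it, and 1 of 10 rose in iSPN, against 5.39% of all. The high dose lowered 6 of 10 in lesioned dSPN and raised none, with a median change of -0.33 against -0.04 over all probe sets, of which 44.9% passed. The low dose lowered 4 and raised 1 of 10 in dSPN, where 33.4% of all passed, and 1 of 10 was lower with the high than with the low dose (5.89% of all). In lesioned iSPN each dose lowered 1 of 10, against 8.71% of all with the high dose and 3.77% with the low dose, and 0 of 10 differed between the doses (0.121% of all). A probe set passed with a Benjamini-Hochberg adjusted p under 0.05 over all 23974 in the comparison, from limma. Shares near the background, such as 5 of 10 beside 33.4%, say little about these genes as a group.

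**Figure D1:**
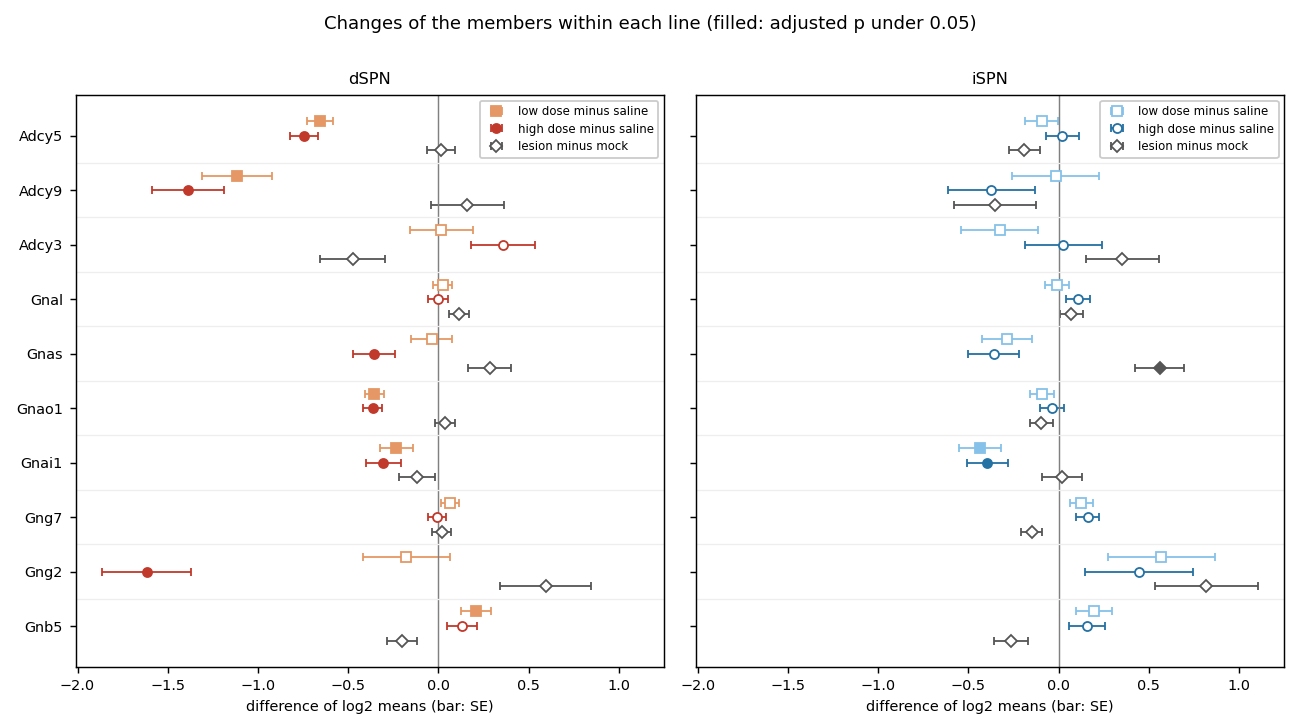
Changes of the 10 genes within dSPN (left) and iSPN (right), as differences of log2 means with SE bars; squares are low dose minus saline, circles high dose minus saline and diamonds lesion minus mock, and filled symbols passed the test. In dSPN, Adcy5, Adcy9, Gnao1 and Gnai1 have filled symbols left of zero with both doses, and Gng2 and Gnas with the high dose.

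Adcy5 fell in dSPN with both levodopa doses. In lesioned dSPN its signal lay between 11.06 and 11.71 with saline (median 11.53), between 10.50 and 11.30 with the low dose (median 10.85) and between 10.43 and 11.003 with the high dose (median 10.77), and in mock-lesioned dSPN between 11.33 and 11.67 (median 11.46). All high-dose arrays lay below all saline arrays, while the low-dose arrays overlapped the saline ones and lay entirely below the mock ones. The change was -0.74 with the high dose (SE 0.08, adjusted p = 1.96e-13), or 0.597 of the saline level, and -0.66 with the low dose (SE 0.07, adjusted p = 2.17e-11). In iSPN the gene stayed within 11.09 to 11.48 with saline, 11.03 to 11.34 with the low dose and 11.10 to 11.49 with the high dose (medians 11.26, 11.21 and 11.33), and these groups overlapped. The levodopa effect in dSPN minus the effect in iSPN was -0.76 for the high dose (SE 0.12, adjusted p = 4.85e-07) and -0.56 for the low dose (SE 0.12, adjusted p = 0.000299). These calls held with the glial marker mean as a covariate, where the high-dose change in dSPN was -0.69. The high-dose fall in dSPN also held among the 9 high-dose and 6 saline arrays of the same run, where it was -0.84. A run is a stretch over which the numbers in the sample titles rise, and the labels do not say what it stands for. A second Adcy5 probe set, 1439829_at, fell too, by 0.34 with the high and by 0.45 with the low dose, but its effects did not pass a test of the difference between the lines (adjusted p = 0.621 and 0.0791).

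Adcy9 encodes a widely expressed cyclase that responds to Gs. Its signal in lesioned dSPN ran from 7.96 to 8.92 with saline (median 8.51), from 6.46 to 8.18 with the low dose (median 7.39) and from 6.09 to 8.03 with the high dose (median 6.99), while mock-lesioned dSPN held 7.92 to 8.83 (median 8.21). The levodopa groups reached down by more than a log2 unit below the lowest saline array, and their highest arrays overlapped the saline range. The high-dose change was -1.39 (SE 0.20, adjusted p = 1.51e-08) and the low-dose change -1.12 (SE 0.19, adjusted p = 3.14e-06), or 0.382 and 0.461 of the saline level. All 4 Adcy9 probe sets fell in dSPN with both doses, by 0.76 to 1.39 with the high dose and by 0.59 to 1.12 with the low dose.

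In lesioned iSPN, Adcy9 lay between 6.80 and 8.74 with saline (median 8.17), between 7.43 and 9.17 with the low dose (median 7.91) and between 7.17 and 8.20 with the high dose (median 7.69), with overlap throughout. Changes there were -0.37 with the high dose (SE 0.24, adjusted p = 0.372) and -0.02 with the low dose (SE 0.24, adjusted p = 0.985). The dSPN effect minus the iSPN effect was -1.01 for the high dose (SE 0.31, adjusted p = 0.0115) and -1.10 for the low dose (SE 0.31, adjusted p = 0.00933). That difference is less firm than the fall in dSPN itself. One iSPN saline array, replicate 7, lay far below its group at 6.80, and without it the differences were -0.80 and -0.89 (adjusted p = 0.0469 and 0.0377). With run as a fixed block the high-dose difference was -0.87 (adjusted p = 0.15), and the other 3 probe sets passed this test with neither dose (adjusted p between 0.218 and 0.866). With the low dose in iSPN, their means were 7.56 (1449620_s_at), 7.51 (1434454_at) and 6.99 (1419811_at), against 8.26, 7.70 and 7.79 with saline. None of these low-dose changes passed the test. In lesioned dSPN, 1449620_s_at had means of 7.17 with the low dose and 7.76 with saline.

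Adcy3, a calcium-sensitive cyclase known from olfactory and neuronal cilia, differed in level between the lines in the depleted striatum (-0.71 in dSPN against iSPN, adjusted p = 0.00593) but missed the test after mock lesion (0.12, adjusted p = 0.713). Its signal was 6.57 to 7.72 in saline-treated lesioned dSPN (median 7.39) and 7.39 to 8.40 in mock dSPN (median 7.86), and the groups overlapped. In iSPN it was 7.42 to 8.80 after the lesion (median 7.85) and 6.94 to 8.37 after mock lesion (median 7.59), again with overlap. Neither change passed the test, at -0.48 in dSPN (SE 0.18, adjusted p = 0.195) and 0.35 in iSPN (SE 0.20, adjusted p = 0.361). The difference between these changes, -0.83 (SE 0.27, adjusted p = 0.0653), also missed it for the leading probe set, but passed for 1436928_s_at (-0.81, adjusted p = 0.0412) and 1421959_s_at (-1.02, adjusted p = 0.0203). Over the 10 leading probe sets, 0 passed this test of the difference between the lines in the lesion effect, against 4.13% of all. With the high dose, Adcy3 differed from saline in dSPN by 0.36 (SE 0.18, adjusted p = 0.0906), and 1436928_s_at rose by 0.41 (SE 0.16, adjusted p = 0.0281).

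The promoters of Adcy5, Adcy9 and Gng2 are shown because these genes fell most in dSPN, the cyclases with both doses and Gng2 with the high dose. Each window holds 250 bases before and 50 after the start site, from RefSeq on GRCm38.p6, 5′ to 3′ on the strand of the gene; capitals mark TGACG, the core of the cyclic AMP response element. Adcy5 lies at chr16:35154614-35154913 (plus strand), Adcy9 at chr16:4420449-4420748 (minus strand) and Gng2 at chr14:19976644-19976943 (minus strand).
Adcy5: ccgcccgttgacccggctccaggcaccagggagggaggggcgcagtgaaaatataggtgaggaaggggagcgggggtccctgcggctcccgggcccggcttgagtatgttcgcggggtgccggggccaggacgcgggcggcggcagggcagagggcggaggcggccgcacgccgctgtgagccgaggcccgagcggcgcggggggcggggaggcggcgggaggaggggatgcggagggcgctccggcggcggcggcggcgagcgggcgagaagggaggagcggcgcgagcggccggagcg
Adcy9: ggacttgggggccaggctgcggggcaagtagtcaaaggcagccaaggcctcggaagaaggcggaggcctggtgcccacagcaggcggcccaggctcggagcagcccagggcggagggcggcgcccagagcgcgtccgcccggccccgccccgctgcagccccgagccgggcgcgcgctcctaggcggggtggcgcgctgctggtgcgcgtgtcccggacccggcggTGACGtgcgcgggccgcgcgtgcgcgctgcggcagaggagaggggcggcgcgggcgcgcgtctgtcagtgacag
Gng2: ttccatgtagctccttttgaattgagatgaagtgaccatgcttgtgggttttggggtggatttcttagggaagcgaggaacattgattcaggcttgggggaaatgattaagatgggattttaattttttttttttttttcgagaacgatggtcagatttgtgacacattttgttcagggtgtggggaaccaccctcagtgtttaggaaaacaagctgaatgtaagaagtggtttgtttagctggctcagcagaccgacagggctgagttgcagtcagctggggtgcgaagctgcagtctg
The cyclase windows are rich in G and C, with 79% in Adcy5 and 78.3% in Adcy9, against 44.7% in Gng2 and a median of 52.7% over all promoters, and hold 44, 42 and 5 CG pairs. On either strand, TGACG was found once in the Adcy9 window, 24 bases before the start site, and in neither of the others; 20.8% of all 32851 promoters of that length hold it. The full element TGACGTCA (1.79% of promoters, overlapping TGACG) and the AP-1 motif TGACTCA (5.20%) were found in none of the 14 windows of 9 of the genes. Gnal was not searched. TGACG was found in 5 of the windows, from 3 genes, Gnas, Gng7 and Adcy9. The Gnas windows that start at 174327499 and 174327518 overlap and hold the same site. A match is only a match of letters.

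By its leading probe set, Gnal barely moved with lesion or levodopa. In lesioned dSPN its signal was 11.11 to 11.34 with saline (median 11.26), 11.05 to 11.35 with the low dose (median 11.30) and 11.14 to 11.45 with the high dose (median 11.20), and in mock dSPN 11.01 to 11.29 (median 11.12). The high dose changed it by 0.00 (SE 0.05, adjusted p = 0.983) and the low dose by 0.02 (SE 0.05, adjusted p = 0.771). In iSPN it was 11.36 to 11.68 with saline (median 11.58), 11.33 to 11.72 with the low dose (median 11.48) and 11.52 to 11.72 with the high dose (median 11.63), with changes of 0.11 and -0.01 for the high and low dose that missed the test. The lines did differ: Gnal was lower in dSPN than in iSPN by 0.32 after mock lesion (SE 0.06, adjusted p = 1.08e-05) and by 0.28 after the lesion (SE 0.06, adjusted p = 0.000351), where the groups did not overlap. Its second probe set, 1442021_at, pointed the other way and was higher in dSPN, by 0.31 after mock lesion (adjusted p = 0.00108) and 0.37 after the lesion (adjusted p = 0.00033). That probe set also rose in iSPN with the high dose, by 0.33 (SE 0.09, adjusted p = 0.00678), and the dim 1446359_at rose in dSPN by 0.78 (SE 0.31, adjusted p = 0.0354). For 1442021_at the high-dose effect in dSPN minus that in iSPN was -0.31 (SE 0.11, adjusted p = 0.0337). Which Gnal transcripts each probe set detects was not tested.

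**Figure D2:**
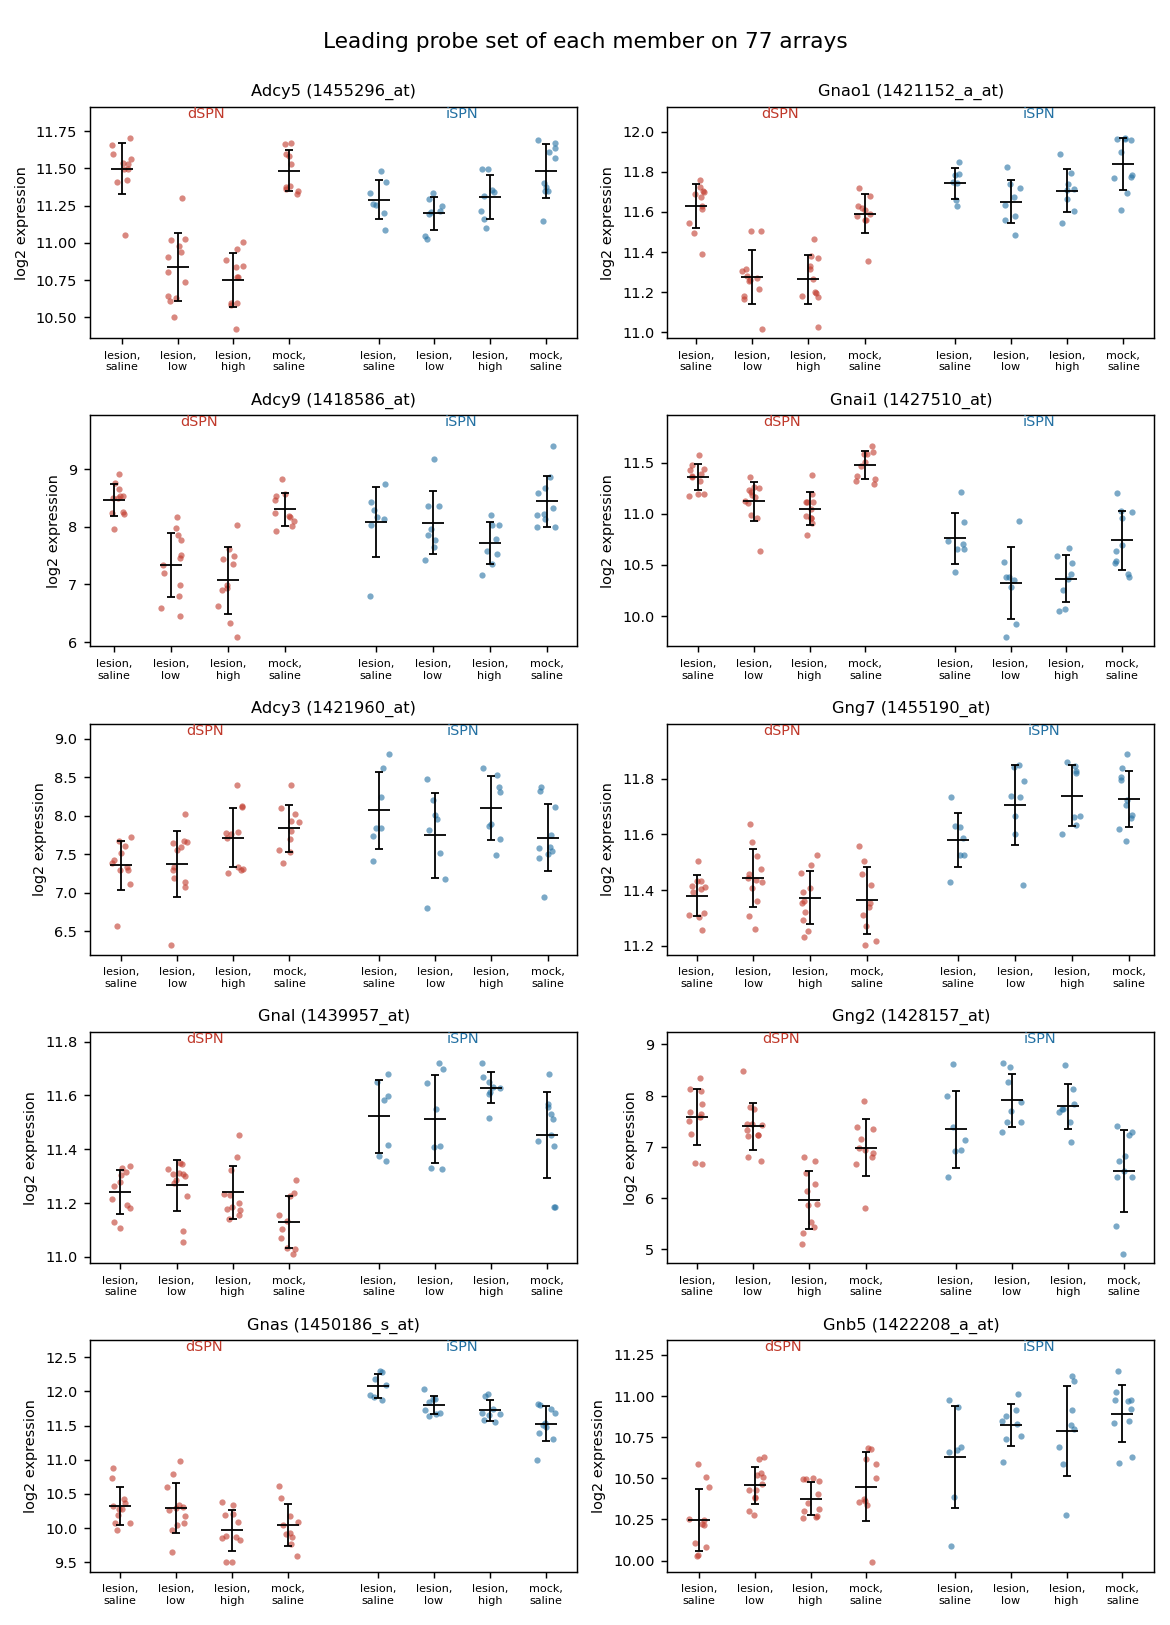
Leading probe set of each gene on all 77 arrays, as log2 expression; points are arrays, black bars mean and SD, red dSPN and blue iSPN, each with lesion plus saline, low dose and high dose and then mock lesion. The Gnas panel shows dSPN and iSPN arrays fully apart, and the Gng2 panel shows the high-dose dSPN arrays low.

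Gnas, which encodes Gs alpha, differed most between the lines. Its signal lay between 9.97 and 10.88 in lesioned saline dSPN (median 10.28), against 11.87 to 12.30 in lesioned saline iSPN (median 12.09). After mock lesion it lay between 9.60 and 10.62 in dSPN (median 9.99), against 10.995 to 11.82 in iSPN (median 11.52). No dSPN array reached any iSPN array in either condition. The difference was -1.76 after the lesion (SE 0.13, adjusted p = 3.03e-18) and -1.48 after mock lesion (SE 0.12, adjusted p = 4.33e-16), so that dSPN held 0.296 and 0.358 of the iSPN level. The locus gives several transcripts, and the other probe sets above the filter missed the test: the dim 1453413_at and 1427789_s_at differed by 0.08 at most (adjusted p at least 0.631).

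Gnas was also the gene that rose after the lesion in iSPN, by 0.56 (SE 0.13, adjusted p = 0.00475), with no overlap between lesioned and mock arrays. In lesioned iSPN it then lay between 11.64 and 12.03 with the low dose (median 11.79) and between 11.55 and 11.96 with the high dose (median 11.68), overlapping the saline arrays, and the changes of -0.29 and -0.36 missed the test (adjusted p = 0.279 and 0.0954). In dSPN the lesion change of 0.28 missed it as well (SE 0.12, adjusted p = 0.275), and so did the difference between the lesion effects of the lines (-0.28, adjusted p = 0.473). The high dose lowered Gnas in lesioned dSPN to 9.50 to 10.39 (median 9.89), against 9.97 to 10.88 with saline, a change of -0.36 (SE 0.12, adjusted p = 0.00829) with overlapping groups. With the low dose it was 9.66 to 10.98 (median 10.28), a change of -0.04 (SE 0.11, adjusted p = 0.836). Within the run that holds both groups the high-dose change was -0.33 (adjusted p = 0.127), and with run as a fixed block the iSPN lesion change was 0.50 (adjusted p = 0.445). The dim 1427789_s_at fell in iSPN with the high dose by 0.38 (adjusted p = 0.0348), and its dSPN effect minus its iSPN effect was 0.50 (adjusted p = 0.0145). Cholinergic markers moved with the line: Slc5a7 and Slc18a3 were lower in dSPN by 1.02 and 1.12 after mock lesion (adjusted p = 0.0017 and 0.00336), and Slc5a7 differed by 0.79 between lesioned and mock iSPN (adjusted p = 0.0819). The median lesion change of these 2 markers in iSPN was 0.49, and neither passed the test. Their part in the Gnas differences was not tested.

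Gnao1, the Go alpha subunit and a major G protein of brain, fell in dSPN with both doses by nearly the same amount. In lesioned dSPN it lay between 11.39 and 11.76 with saline (median 11.68), between 11.02 and 11.51 with the low dose (median 11.26) and between 11.03 and 11.46 with the high dose (median 11.26), and in mock dSPN between 11.36 and 11.72 (median 11.60). Only the lowest saline arrays reached into the levodopa ranges. The change was -0.37 with the high dose (SE 0.05, adjusted p = 4.45e-08) and -0.36 with the low dose (SE 0.05, adjusted p = 1.05e-07). The dim 1448031_at and 1460383_at fell as well with the high dose, by 0.80 and 0.75. Neither passed the test of the difference between the lines with either dose. In lesioned iSPN Gnao1 lay between 11.63 and 11.85 with saline (median 11.75), between 11.49 and 11.82 with the low dose (median 11.65) and between 11.54 and 11.89 with the high dose (median 11.71), all overlapping. The dSPN effect minus the iSPN effect was -0.33 for the high dose (SE 0.09, adjusted p = 0.00243) and -0.26 for the low dose (SE 0.08, adjusted p = 0.0259). The low-dose difference was lost with the glial marker mean as a covariate (-0.21, adjusted p = 0.131), with run as a fixed block (-0.20, adjusted p = 0.382), with each array centred on its median (-0.21, adjusted p = 0.0817), and without replicate 2 of the low-dose iSPN arrays (-0.24, adjusted p = 0.0519).

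Gnai1 encodes Gi alpha 1, which inhibits Adcy5. Its leading probe set fell in both lines, while its other 2 probe sets passed the test with neither dose in either line. In dSPN it lay between 11.17 and 11.58 with saline (median 11.37), between 10.64 and 11.36 with the low dose (median 11.17) and between 10.79 and 11.38 with the high dose (median 11.05). The change in dSPN was -0.31 with the high dose (SE 0.10, adjusted p = 0.00628) and -0.23 with the low dose (SE 0.09, adjusted p = 0.045). In iSPN it lay between 10.43 and 11.21 with saline (median 10.70), between 9.80 and 10.93 with the low dose (median 10.36) and between 10.05 and 10.66 with the high dose (median 10.39). The change in iSPN was -0.39 with the high dose (SE 0.12, adjusted p = 0.0189) and -0.44 with the low dose (SE 0.12, adjusted p = 0.0159). Levodopa and saline arrays overlapped in both lines, and the effects in dSPN minus those in iSPN were 0.09 and 0.20 for the high and low dose (adjusted p = 0.726 and 0.412). The changes of 1454959_s_at ran from -0.24 to -0.11 over both lines and doses, and those of 1434440_at were -0.16 and 0.07 in dSPN and -0.38 and -0.25 in iSPN for the high and low dose.

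These Gnai1 calls were the least firm of the falls. The high-dose change in dSPN was -0.20 with the glial marker mean as a covariate (adjusted p = 0.202), and the low-dose one -0.13 (adjusted p = 0.455). The low-dose change in dSPN was -0.16 with run as a fixed block (adjusted p = 0.566), and its call was lost when any 1 of 13 arrays was left out (adjusted p up to 0.109). In iSPN the high-dose call ended without saline replicate 7 (-0.32, adjusted p = 0.0803) or high-dose replicate 2 or 4 (-0.35 each, adjusted p = 0.0547 and 0.053), and the low-dose call without saline replicate 7 (-0.36, adjusted p = 0.071) or low-dose replicate 5 or 8 (-0.38 and -0.36, adjusted p = 0.0561 and 0.0605). Fitted on the iSPN arrays alone, the values were the same and the adjusted p-values 0.142 and 0.169.

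**Figure D3:**
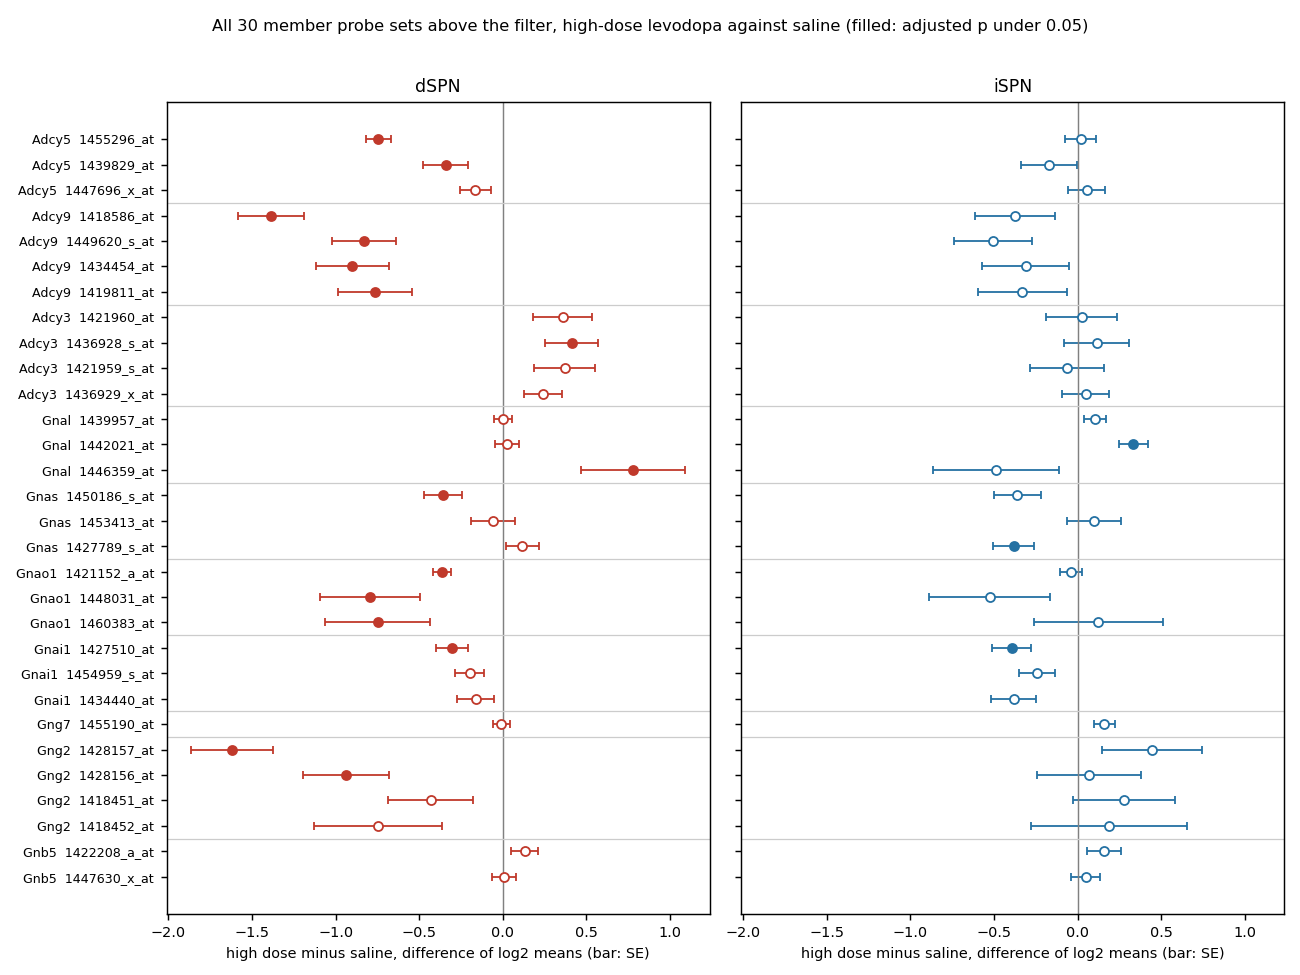
High-dose levodopa minus saline in lesioned dSPN (left) and lesioned iSPN (right) for the 30 probe sets above the filter, as differences of log2 means with SE bars; filled symbols passed the test. In dSPN 13 of 30 fell and 2 rose, where 44.9% of all probe sets tested passed. In iSPN 2 of 30 fell and 1 rose, where 8.71% of all passed.

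Gng7 was among the steadiest of the 10. Its single probe set lay between 11.26 and 11.50 in lesioned dSPN with saline (median 11.40), between 11.26 and 11.64 with the low dose (median 11.44) and between 11.23 and 11.53 with the high dose (median 11.36), with full overlap. Its changes in dSPN were -0.01 with the high dose (SE 0.05, adjusted p = 0.91) and 0.06 with the low dose (SE 0.05, adjusted p = 0.358). In iSPN it lay between 11.43 and 11.73 with saline, between 11.42 and 11.85 with the low dose and between 11.60 and 11.86 with the high dose, and the high-dose change of 0.16 missed the test (SE 0.06, adjusted p = 0.0922). Gng7 was lower in dSPN than in iSPN, by 0.37 after mock lesion with no overlap (SE 0.05, adjusted p = 2.09e-07) and by 0.20 after the lesion (SE 0.06, adjusted p = 0.00806).

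Gng2, a gamma subunit found widely in brain, was the gene that separated the doses. In lesioned dSPN it lay between 6.66 and 8.35 with saline (median 7.65), between 6.72 and 8.47 with the low dose (median 7.38) and between 5.11 and 6.81 with the high dose (median 5.88), and in mock dSPN between 5.81 and 7.90 (median 6.96). The high-dose arrays touched the saline and low-dose ranges only at their upper end. The high-dose change was -1.62 (SE 0.25, adjusted p = 7.26e-08), or 0.326 of the saline level, and the low-dose change -0.18 (SE 0.24, adjusted p = 0.612). High against low dose differed by -1.44 (SE 0.24, adjusted p = 2.82e-05). With run as a fixed block this was -1.19 (adjusted p = 0.105), and within the run that holds 2 high-dose and 11 low-dose arrays -1.22 (adjusted p = 0.171). The second probe set, 1428156_at, fell by 0.94 with the high dose against saline (SE 0.26, adjusted p = 0.00178) and was lower by 0.93 with the high than with the low dose (SE 0.25, adjusted p = 0.0138). The dim 1418451_at and 1418452_at missed the test of high dose against saline and that of high against low dose. Their means were 4.80 and 3.96 with the high dose, against 4.99 and 4.72 with the low dose and 5.24 and 4.71 with saline.

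In lesioned iSPN, Gng2 lay between 6.40 and 8.62 with saline (median 7.13), between 7.28 and 8.64 with the low dose (median 7.79) and between 7.10 and 8.59 with the high dose (median 7.74), with overlap, against 4.92 to 7.41 in mock iSPN (median 6.63). Changes against saline of 0.45 and 0.57 for the high and low dose missed the test (adjusted p = 0.392 and 0.32). The high-dose effect in dSPN minus the iSPN effect was -2.06 (SE 0.39, adjusted p = 2.23e-05), the largest such difference among the leading probe sets of the 10 genes. It was smaller for the other 3 Gng2 probe sets, which missed the test, at -1.01 for 1428156_at, -0.71 for 1418451_at and -0.94 for 1418452_at (adjusted p = 0.06, 0.201 and 0.281). For the low dose it was -0.75 (SE 0.38, adjusted p = 0.204).

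Gnb5 encodes the beta subunit that pairs with regulators of G protein signalling of the R7 class in place of a gamma subunit. In lesioned dSPN it lay between 10.03 and 10.58 with saline (median 10.22), between 10.28 and 10.63 with the low dose (median 10.45) and between 10.26 and 10.50 with the high dose (median 10.35), all overlapping. It rose with the low dose by 0.21 (SE 0.08, adjusted p = 0.0395), a call lost when any 1 of 11 arrays was left out, with run as a fixed block (0.05, adjusted p = 0.87) and with the glial covariate (0.15, adjusted p = 0.299). The high-dose change of 0.13 missed the test (SE 0.08, adjusted p = 0.204). Gnb5 was lower in dSPN than in iSPN, by 0.44 after mock lesion (SE 0.09, adjusted p = 7.43e-05) and by 0.38 after the lesion (SE 0.09, adjusted p = 0.0017).

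Tested directly, the levodopa effect differed between the lines for 4 of 10 genes with the high dose, against 23.3% of all probe sets, and for 3 of 10 with the low dose, against 13.5%. All were lower in dSPN: Adcy5, Adcy9 and Gnao1 with both doses and Gng2 with the high dose. These calls rest on the leading probe sets, and no other probe set of these 4 genes passed this test with either dose. For the leading probe sets of Gnal, Gnas, Gnai1, Gng7, Gnb5 and Adcy3 the difference between the lines ran from -0.17 to 0.34 over both doses and missed the test each time, except that the high-dose difference of Gng7, -0.17, was -0.23 (adjusted p = 0.0269) with the glial marker mean as a covariate. Of their other probe sets, Gnal 1442021_at passed with the high dose, at -0.31 (adjusted p = 0.0337), as did Gnas 1427789_s_at, at 0.50 (adjusted p = 0.0145).

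Against mock lesion, the state after lesion and levodopa was as follows. High-dose dSPN differed from mock dSPN in 5 of 10 genes, all lower (42% of all probe sets passed): Adcy9 by 1.23, Gng2 by 1.02, Adcy5 by 0.73, Gnai1 by 0.42 and Gnao1 by 0.33 on the log2 scale. Low-dose dSPN differed in 6 of 10 (28.8% of all), with Adcy9 lower by 0.96, Adcy5 by 0.64, Adcy3 by 0.46, Gnai1 by 0.35 and Gnao1 by 0.32, and Gnal higher by 0.14. The Adcy3 call was lost when any 1 of 11 arrays was left out and the Gnal call with any 1 of 17, and both were lost with no filter, with quantile normalization and with run as a fixed block. High-dose iSPN differed from mock iSPN in 4 of 10 (17.9% of all), with Gng2 at 1.27 and Gnal at 0.18 higher and Adcy9 at -0.73 and Gnai1 at -0.38 lower. In that comparison 7 of 9 oligodendrocyte and 1 of 8 astrocyte markers were lower. Of 9 markers of dSPN, 6 were lower and 2 higher there. The part of glial and dSPN RNA in these 4 calls was not tested beyond the glial covariate. Low-dose iSPN also differed in 4 of 10 (10.1% of all), with Gng2 at 1.39 higher and Gnai1 at -0.42, Adcy5 at -0.28 and Gnao1 at -0.19 lower. Of the 30 probe sets above the filter, 1 rose and 3 fell there, all of them leading ones. Adcy5 1439829_at had a mean of 10.51 in low-dose iSPN and 10.48 in mock iSPN. The Gnao1 call was lost without any 1 of 7 arrays, with array weights, median centring or the glial covariate and on the iSPN arrays alone; the Adcy5 call was lost without low-dose replicate 5 (adjusted p = 0.0507) and with array weights (-0.23, adjusted p = 0.129). In high-dose iSPN the Gnal call was lost without any 1 of 3 arrays, with array weights, quantile normalization or the glial covariate and on the iSPN arrays alone. The Gnai1 call was lost on the iSPN arrays alone (adjusted p = 0.0748). Gng2 thus stood below mock in high-dose dSPN and above mock in iSPN with either dose. In saline-treated lesioned iSPN Gng2 already lay above mock by 0.82, which missed the test (adjusted p = 0.0761). That lesion change passed with run as a random block (0.85, adjusted p = 0.0422) and without any 1 of 3 arrays. The comparisons of levodopa groups with mock share their mock arrays with the lesion comparison. Within the run that holds 2 high-dose and 2 mock dSPN arrays none of the 10 passed for the high dose, and with run as a fixed block none passed in iSPN.

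**Figure D4:**
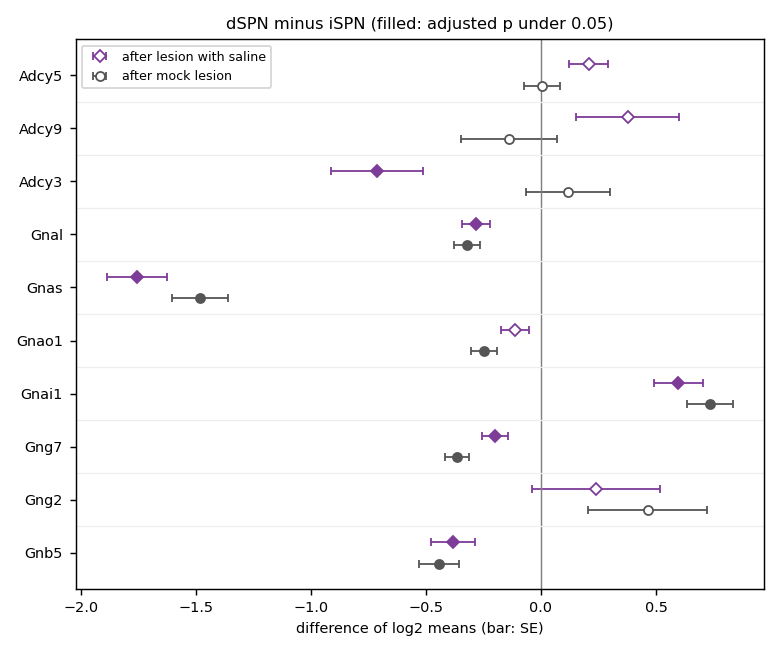
Difference of dSPN minus iSPN for the 10 genes after lesion with saline (diamonds) and after mock lesion (circles), as differences of log2 means with SE bars; filled symbols passed the test. Gnas lies far below zero and Gnai1 above it in both conditions.

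Between the lines, 6 of 10 genes differed after mock lesion (21.9% of all probe sets) and 6 of 10 after the lesion (21% of all). Gnas, Gnb5, Gng7 and Gnal were lower in dSPN in both conditions. The leading Gnao1 probe set passed the test only after mock lesion, lower by 0.25 (SE 0.06, adjusted p = 0.000703) against 0.11 after the lesion (SE 0.06, adjusted p = 0.195). The dim Gnao1 probe set 1448031_at was lower in dSPN after the lesion, by 0.95 (SE 0.34, adjusted p = 0.0359). Adcy3 was lower after the lesion, by 0.71 (SE 0.20, adjusted p = 0.00593). Gnai1 was the one gene higher in dSPN. It lay between 11.29 and 11.66 in mock dSPN (median 11.49), against 10.39 to 11.21 in mock iSPN (median 10.67), with no overlap and a difference of 0.73 (SE 0.10, adjusted p = 3.03e-08). After the lesion the difference was 0.60 (SE 0.11, adjusted p = 1.63e-05), and its other 2 probe sets were higher in dSPN too, by 0.64 to 1.06 over both conditions. Adcy5 missed the test after mock lesion, at 0.00 (SE 0.08, adjusted p = 0.983), but 1439829_at was higher in dSPN by 0.55 (SE 0.14, adjusted p = 0.00257). No run of title numbers spans the lines, and the effects of line and of run cannot be told apart. Oligodendrocyte markers were lower in mock dSPN than in mock iSPN for 7 of 9, and their part in these differences was not tested.

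The other genes of the pathway give the setting of the high-dose changes in dSPN, where 44.9% of all probe sets passed. Of the other adenylyl cyclases, 5 of 7 were tested and 1 fell, Adcy2, a cyclase stimulated by beta-gamma subunits, by 1.05 (adjusted p = 0.000235). Of 8 other alpha subunits tested, 5 fell and 1 rose: Gnaz, whose product inhibits cyclases, fell by 0.85 (adjusted p = 2.36e-10), Gna12 by 0.77 and Gnai2 by 0.58, and Gnai3 rose by 0.79 (adjusted p = 4.41e-05). The effect on Gnaz was lower in dSPN than in iSPN by 0.73 (adjusted p = 0.000508), and that on Gnai3 higher by 0.78 (adjusted p = 0.0188). Of 13 other beta and gamma subunits, 4 rose and 2 fell. Gng4 rose by 1.45 (adjusted p = 1.33e-06), the opposite direction to Gng2, and Gnb4 fell by 0.63 (adjusted p = 2.7e-05).

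Among 11 chaperones and regulators tested, 6 fell and 3 rose with the high dose in dSPN, against 44.9% of all probe sets in either direction. Pdcl, the phosducin-like chaperone of beta-gamma assembly, fell by 1.35 (adjusted p = 2.2e-07), Gprin1 by 0.76 and Gpsm1 by 0.73, while Rasd1, a small G protein that acts on Gi signalling, rose by 1.02 (adjusted p = 2.09e-07). With the low dose 4 fell and 1 rose, against 33.4% of all. The one that rose was Ric8b, the chaperone of Gs and Golf, by 0.48 (adjusted p = 0.00685). Of 6 members of the R7 complex tested, the partners of Gnb5, 3 fell and 1 rose with the high dose, beside the same 44.9%. Rgs6 rose by 2.06 (adjusted p = 2.04e-08), and Gpr158, Rgs7bp and Rgs9 fell by 0.34, 0.21 and 0.19.

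Receptors that couple to Gi or Go fell in 5 of 7 tested with the high dose in dSPN and rose in 1, with a median change of -0.71 against -0.04 over all probe sets, of which 44.9% passed. The serotonin receptor Htr1b rose by 1.71 (adjusted p = 1.86e-23), and the opioid receptors Oprd1 and Oprk1 fell by 1.47 and 1.19 and Drd2 by 0.72. Of 4 receptors tested that couple to Gs or Golf, Gpr6 fell by 0.77 (adjusted p = 0.00201) and Drd1 by 0.32 (adjusted p = 0.0322). Drd2, Oprd1 and Gpr6 are iSPN markers, far lower in dSPN (-4.87, -3.85 and -4.27 against iSPN after mock lesion), and the mean of 4 iSPN markers had a median of 7.18 in high-dose dSPN, against 7.94 in saline-treated dSPN. The fourth iSPN marker tested, Penk, rose in dSPN by 0.48 with the high dose (adjusted p = 5.49e-10) although it too was lower in dSPN than in iSPN (-2.10 after mock lesion). The part of iSPN RNA in these falls was not tested.

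Downstream of cyclic AMP, 8 of 17 effectors tested fell and 5 rose with the high dose in dSPN, against 44.9% of all probe sets. Rapgef3, the cyclic AMP sensor Epac1, fell by 2.73 (adjusted p = 1.35e-05) and the kinase subunit Prkar2b by 0.57, while Prkar2a rose by 1.00 (adjusted p = 4.33e-10) and Ppp1r1a, an inhibitor of protein phosphatase 1, by 0.53. In iSPN the high dose lowered 2 and raised 1 of the 17 (8.71% of all passed), with Ppp1r1a at -0.36 (adjusted p = 0.00234), the phosphodiesterase Pde7b at -0.29 and Pde2a at 0.22.

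In lesioned mice that received saline, some of these genes differed from mock lesion. In iSPN, where 5.39% of all probe sets passed, 1 of 13 other beta and gamma subunits and 3 of 17 effectors did. So did 1 of 4 receptors coupled to Gs or Golf and 2 of 7 coupled to Gi or Go. In dSPN, where 1.99% of all passed, 1 of 11 chaperones and regulators and 1 of 6 R7 members did. So did 1 of 7 receptors coupled to Gi or Go and 1 of 17 effectors. In iSPN Gng4 rose by 1.24 (adjusted p = 0.00347) and the cannabinoid receptor Cnr1, which couples to Gi, by 1.22, while the opioid receptor Oprm1 fell by 1.02 and Drd1, far lower in iSPN than in dSPN, by 0.47 (adjusted p = 0.0401). Of the effectors in iSPN, the transcription factor gene Creb1 rose by 0.57, Pde7b by 0.35 and Ppp1r1a by 0.25. In dSPN, Oprm1 fell by 1.05, Gpsm1 by 0.84, Gpr158 by 0.46 and the phosphodiesterase Pde1b by 0.19.

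Across the 44 dSPN arrays the genes whose signal followed each member most closely were ranked by Pearson's r, as a description that includes the group differences shared by all. For Adcy5 they were Cd47 (0.95), Itm2c (0.93) and Slc12a5 (0.93), and for Adcy9 Add2 (0.86), Wnk1 (0.84) and Kmt2e (0.83). Gnao1 lay closest to Pcmtd1 (0.87), Kmt2c (0.87) and Arhgap32 (0.86), and Gnai1 to Lzts3 (0.88), Ccdc181 (0.86) and also Arhgap32 (0.86). Gng2 lay closest to Stmn1 (0.77), Ankrd63 and Vsnl1 (0.69 each), and Gnas to Vsnl1 (0.63), Stmn1 (0.62) and Gng2 (0.59). Values for Adcy3, Gnal and Gnb5 did not exceed 0.63. Over the 33 iSPN arrays other genes ranked first, with Man2a2 for Adcy5 (0.77), Tmem44 for Adcy9 (0.74), Ago4 for Gnao1 (0.66), Klf5 for Gnai1 (0.78), Nectin3 for Gng2 (0.75), Scg2 for Gnas (0.80), Cox5b for Gnal (0.81), Pigp for Adcy3 (0.82) and Nudt14 for Gnb5 (0.67).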

How the data were processed

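The authors deposited log2 expression values, 1 array per mouse, made from Affymetrix mouse array images; RMA and affy are named in the submitters' processing notes, with no version stated. RMA subtracts background, equalises the distributions of the arrays and summarises each probe set, which can understate large changes. Array signals give no counts, so the number of arrays limits the precision. Symbols came from GEO's platform annotation: 34958 probe sets have 1 symbol, 932 several and 9211 none.

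The deposited log2 values were used as they are. Probe sets with 1 symbol and a mean above the 40th percentile (3.55) were kept, 23974 in all, for 13271 genes. limma 3.58.1 (lmFit and eBayes, two-sided) in R 4.3.3 fitted 8 group means to 77 arrays, with 69 residual degrees of freedom and no covariate; p-values were adjusted by Benjamini-Hochberg within each of 17 comparisons. The script was tested on simulated data. Groups come from the source labels.

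All 10 members were named, with up to 4 called genes of largest change from each further list and, for each member called within a line, the 3 genes of highest Pearson's r in each line; members and lists were chosen with earlier results of these data known. Gene symbols with no singly annotated probe set were not tested here. Numbers in the titles fall into 7 runs within which they rise, and no run holds arrays of both lines; the labels do not say what these runs were. Alternatives were other filters, 1 probe set a gene, each line alone, run as a block or within runs, array weights, other scalings, a covariate of 17 glial markers, and leaving out each array.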

Additional observations from a re-analysis of the deposited data

Results flagged for a closer look

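A test of the highest and lowest array of each group of 4 to 10 arrays, run 50 times over the 10 leading probe sets, singled out 3 arrays, and chance gives about 1 in 20. Adcy9 in saline-treated lesioned iSPN had 1 array at 6.80 (replicate 7, n = 7), with the next at 8.04; without it the high-dose change in iSPN was -0.59 in place of -0.37 (adjusted p = 0.118), and the high-dose and low-dose effects in dSPN minus those in iSPN were -0.80 and -0.89 (adjusted p = 0.0469 and 0.0377). Gnao1 in mock-lesioned dSPN had 1 array at 11.36 (replicate 8, n = 10), with the next at 11.56; without it the high-dose dSPN change against mock was -0.35. Gnb5 in mock-lesioned dSPN had 1 array at 9.99 (replicate 4, n = 10), with the next at 10.34; without it the difference of dSPN minus iSPN after mock lesion was -0.39 in place of -0.44.

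By the interaction test of limma, the levodopa effect differed between dSPN and iSPN for 4 of 10 genes with the high dose, against 23.3% of all probe sets. With the low dose it differed for 3 of 10, against 13.5% of all. The dSPN effect minus the iSPN effect was -0.76 with the high and -0.56 with the low dose for Adcy5, -1.01 and -1.10 for Adcy9, -0.33 and -0.26 for Gnao1, and -2.06 with the high dose for Gng2. Beside these, 8 of 9 oligodendrocyte and 5 of 8 astrocyte markers fell in dSPN with either dose against saline. Of all probe sets there, 44.9% passed with the high and 33.4% with the low dose. None of these glial markers passed in iSPN, where 8.71% and 3.77% of all did. With their mean as a covariate the values were -0.73 and -0.52 for Adcy5, -0.96 and -1.03 for Adcy9, -0.29 and -0.21 for Gnao1, and -1.997 for Gng2, of which the low-dose value of Gnao1 missed the test (adjusted p = 0.131).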

How the results depend on the processing

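Of 53 results in which a member passed, 25 kept their call under every alternative that could be fitted for them, none reversed, and the numbers of members called by high-dose levodopa in dSPN stayed within 1.5 times, as did those between the lines under the alternatives that could be fitted there, which leave out each line alone, run as a fixed block and fits within runs. Leaving out 1 array at a time gave 3 to 5 members for the low dose in dSPN (5 with all arrays), 1 to 2 for high against low dose in dSPN (1), 1 to 2 for the lesion in iSPN (1), 0 to 1 for either dose in iSPN (1), 2 to 4 for low-dose iSPN against mock (4) and 0 to 1 for the difference between the lines in the lesion effect (0). With run as a fixed block the numbers were 3 for the low dose in dSPN, 0 for high against low, 3 for low-dose dSPN against mock (6), and 0 for the lesion, either dose and both comparisons with mock in iSPN; 22 of 41 calls were kept. With run as a random block they were 2 for high against low, 2 for the lesion in iSPN and 1 for the difference between the lines in the lesion effect. Within runs they were 0 for high against low, 0 for high-dose dSPN against mock (5), 1 for low-dose dSPN against mock and 0 for either dose in iSPN, with as few as 2 arrays a group. Each line alone gave 0 for either dose in iSPN and 2 for high-dose and for low-dose iSPN against mock (4 each). No filter and the glial covariate each gave 3 for the low dose in dSPN. Array weights gave 2 for low-dose iSPN against mock and 1 for the difference between the lines in the lesion effect, as did the stricter filter (1). The cause of each loss was not tested beyond the fewer arrays or probe sets used. No paired analysis was possible because the titles carry no replicate number shared between groups, and low-dose and saline dSPN share no run.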
